A study of Bos taurus with 12 samples.

Results

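Transcripts of 9 genes that carry cholesterol into, through and out of cells were examined in mammary gland biopsies of lactating Holstein cows. The genes are SCARB1, NPC1, NPC2, STARD4, SOAT1, ABCA1, ABCG1, APOE and ABCG2, chosen by function, and 8 of them are among the 12787 genes that a RefSeq table could name on the arrays. Of the 43653 probes, 17 belonged to 8 of these genes, and none could be matched to STARD4, which binds cholesterol and moves it between membranes, so STARD4 has no value here. The study used multiparous midlactation cows on 1-colour bovine arrays, with 1 array per biopsy. In the control period (CONT, day 0), a lactation diet was offered without limit, and in the restriction period (REST, day 6), feed was cut to cover 50% of the net energy needed for lactation. The labels name 6 cows with an array in each period (12 arrays), the series text counts 5 cows, and the methods of the study state that a Holstein cow was excluded for mastitis without saying which. Each cow was therefore also left out in turn. No unrestricted cows were sampled alongside, so restriction, elapsed days and a first against a second biopsy cannot be told apart.

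Cholesterol reaches a cell in lipoproteins, which are taken up whole or give up their cholesterol esters selectively through SCARB1. Cholesterol freed in the lysosome is passed by NPC2 to NPC1, carried to other membranes by proteins such as STARD4, and stored as esters made by SOAT1. ABCA1 and ABCG1 export it to lipoprotein particles, of which APOE is a protein component. ABCG2, of the same transporter family as ABCG1, lies in the apical membrane of the milk-secreting epithelium and is known for moving riboflavin, urate and many drugs into milk. Milk cholesterol comes from blood lipoproteins and from synthesis within the gland, and leaves the cell mainly in the membrane of the milk fat globule.

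Signals are given as log2 of the processed signal minus the 75th percentile of the array, called normalized signal, so that a change of 1 is a doubling. The 12 arrays lay on 3 slides, both arrays of a cow on the same slide. The 75th percentile was 252 to 390.0 intensity units on slides 1 and 2 (cows 1 to 4) and 73.2 to 117 on slide 3 (cows 5 and 6). Every cow had the higher percentile in REST, with a mean difference of 0.30 ± 0.10 log2 units (SD, n = 6) that the percentile shift removes. A probe was tested when the scanner software called it well above background on all 6 arrays of CONT or of REST. Of the 9 genes, 6 were tested, with 11 of the 17 probes. ABCA1 and ABCG1 had no tested probe. Each gene is represented by its tested probe of highest mean signal, compared between the arrays of the same cow with limma and called at an adjusted p under 0.1, the threshold of the study. In a biopsy, fewer cells of a type and less RNA per cell cannot be told apart.

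APOE rose 1.63-fold in REST, ABCG2 fell to 0.400 of its CONT level, and SCARB1 fell to 0.745 of it. NPC1, NPC2 and SOAT1 did not pass the test. Thus 3 of the 6 tested genes were called (50.0%), where 16.2% of all 7932 tested genes were called. The genes were chosen with earlier results of these data known, so these shares are a description and not a test. In the direction of APOE, 1 of 6 was called against 6.95% of all tested genes, and in the direction of ABCG2 and SCARB1, 2 of 6 against 9.27%. By probe, 5 of 11 were called against 16.0% of all tested probes. Without pairing by cow, 2 of the 6 genes were called, APOE and ABCG2, against 4.41% of all tested genes. The median change of the 6 genes was -0.27, against -0.01 over all tested genes, and 5 of the 6 had a negative change, as had 51.6% of all tested genes. One of the 5 was NPC2, whose sign turned with normexp background correction and with the mean of its probes.

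**Figure D1:**
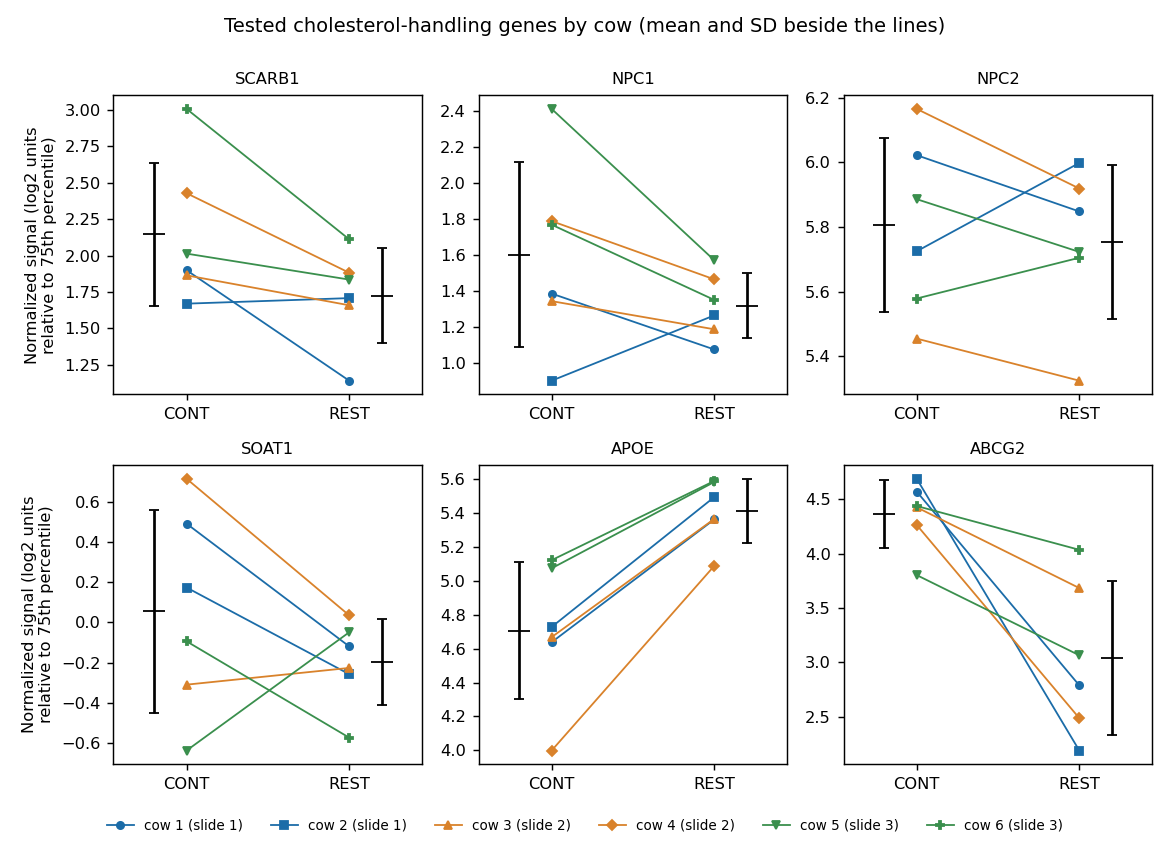
Normalized signal (log2 units relative to the 75th percentile of the array) of the 6 tested genes in CONT and REST, 1 line per cow coloured by slide, with the mean and SD of each group (n = 6) beside the lines. The lines of APOE rise and those of ABCG2 fall in 6 of 6 cows, while those of NPC2 and SOAT1 cross.

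SCARB1 (NM_174597), the scavenger receptor that binds high-density lipoproteins, was lower in REST. Its normalized signal in CONT was 1.90, 1.67, 1.86, 2.43, 2.01 and 3.005 in cows 1 to 6, and in REST it was 1.14, 1.71, 1.66, 1.88, 1.84 and 2.11. The groups overlapped, and the signal was lower in 5 of 6 cows, with cow 2 at 0.04 above its CONT value. The mean was 2.15 ± 0.49 in CONT and 1.72 ± 0.33 in REST (mean ± SD, n = 6). The paired change was -0.42 (SE 0.13, limma adjusted p 0.0813). It was -0.36, -0.38 and -0.54 within slides 1, 2 and 3. The call depended on the pairing, with an adjusted p of 0.348 without it, and on single cows: the change was -0.36 without cow 1 (adjusted p 0.190), -0.47 without cow 3 (0.107), -0.40 without cow 4 (0.190) and -0.33 without cow 6 (0.155). Without slide 3 it was -0.37 (0.146). The other 2 probes of SCARB1 were well above background on 3 and on 6 of the 12 arrays and were not tested.

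The lysosomal exporters did not pass the test. NPC1 (NM_174758), the membrane protein of the pair, ranged from 0.90 to 2.41 in CONT with a median of 1.58, and from 1.08 to 1.57 in REST with a median of 1.31. Its change was -0.28 (SE 0.14, 95% interval from -0.59 to 0.03, adjusted p 0.224), and its other probe changed by -0.29 (adjusted p 0.364). The cows differed, from -0.84 in cow 5 to 0.36 in cow 2, the cow in which both probes were higher in REST. The mean change was 0.03 within slide 1, -0.24 within slide 2 and -0.63 within slide 3. NPC2 (NM_173918), the soluble protein that hands cholesterol to NPC1, ranged from 5.46 to 6.17 in CONT (median 5.81) and from 5.33 to 6.00 in REST (median 5.78). Its change was -0.05 (95% interval from -0.26 to 0.16, adjusted p 0.747). The other 2 probes changed by 0.095 (interval from -0.12 to 0.31) and 0.008 (interval from -0.20 to 0.21), so the sign differed between probes and every interval spanned 0.

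SOAT1 (NM_001034206), which esterifies cholesterol for storage, ranged from -0.64 to 0.71 in CONT (median 0.04) and from -0.57 to 0.04 in REST (median -0.17). It was lower in cows 1, 2, 4 and 6 and higher in cows 3 and 5. Its change of -0.25 (SE 0.17, adjusted p 0.351) was not called, and cow 5, at 0.59, lay apart from the 4 cows with a fall of 0.43 to 0.68. Without cow 5 the change was -0.42 and passed the threshold (adjusted p 0.0725). The dimmer probe of SOAT1 was well above background on 8 of 12 arrays, none of them on slide 3.

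The exporters ABCA1 and ABCG1 did not pass the filter for testing, ABCA1 because it was close to background and ABCG1 through the arrays of cow 6. The brighter probe of ABCA1 (NM_001024693) passed the background test of the scanner software on 3 CONT arrays and 1 REST array, and the other probe on 0 of 12 arrays. The signal of the brighter probe ranged from -4.71 to -3.76 in CONT and from -5.01 to -3.87 in REST. ABCG1 (NM_001205528), with a single probe, was well above background on 5 of 6 arrays in each group, the exception being both arrays of cow 6. It ranged from -1.96 to -0.63 in CONT (median -1.48) and from -2.89 to -0.75 in REST (median -1.55), and was lower in REST in 5 of 6 cows. When all probes were tested, the change of ABCG1 was -0.41 (limma adjusted p 0.235). Cow 6, with neither array well above background, is counted in that change and among the 5 cows, and had the largest fall (-0.93). For ABCA1, most of whose values were not well above background, no change is given.

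APOE (NM_173991), the apolipoprotein through which cells take up and release lipoprotein cholesterol, rose in every cow. In CONT its normalized signal was 4.64, 4.73, 4.67, 3.999, 5.07 and 5.12 in cows 1 to 6, and in REST it was 5.36, 5.49, 5.36, 5.09, 5.58 and 5.59. The groups overlapped only through the CONT array of cow 6 (5.12), which lay above the REST array of cow 4 (5.09), and cow 4 had the lowest signal in both periods. The mean was 4.71 ± 0.40 in CONT and 5.41 ± 0.19 in REST (SD, n = 6). APOE thus rose by 0.71 (SE 0.10, 95% interval from 0.49 to 0.93, limma adjusted p 0.00776). By cow the change lay between 0.47 (cow 6) and 1.09 (cow 4), and the exact sign-flip test over the 6 cows gave p = 0.03125 (two-sided), the smallest that 6 pairs allow. The dimmer probe of APOE rose by 1.02 (SE 0.13, adjusted p 0.00688), from -0.74 to 0.14 in CONT to between 0.44 and 1.17 in REST, with no overlap of the groups. APOE was called under all 21 alternatives that gave a test, with adjusted p-values from 0.00194 to 0.0916. Among them, the table of the series and marked spots kept left its values unchanged. The change of APOE was 0.63 to 0.76 when 1 cow was left out.

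ABCG2 (NM_001037478) had the largest change among the 6 tested genes. Its normalized signal in CONT was 4.57, 4.69, 4.42, 4.26, 3.80 and 4.44 in cows 1 to 6, and in REST it was 2.79, 2.19, 3.68, 2.49, 3.07 and 4.03. The CONT arrays lay close together apart from cow 5, whereas the REST arrays spread widely, and the groups overlapped only through the REST array of cow 6 and the CONT array of cow 5. The mean was 4.36 ± 0.31 in CONT and 3.04 ± 0.70 in REST (SD, n = 6), and the change was -1.32 (SE 0.26, 95% interval from -1.91 to -0.73, limma adjusted p 0.0239). It was lower in 6 of 6 cows (exact sign-flip test, two-sided, p = 0.03125), with changes of -1.78, -2.49, -0.74, -1.77, -0.74 and -0.40. The fall was -2.14 within slide 1, -1.26 within slide 2 and -0.57 within the dim slide 3. Whether the cows of different slides differed was not tested. The dimmer probe of ABCG2 changed by -0.75 (SE 0.16, adjusted p 0.0301, and 0.110 without the pairing), again lower in 6 of 6 cows and by the least in cow 6 (-0.10). With any 1 cow left out, ABCG2 stayed past the threshold, with changes of -1.50 to -1.09, and without slide 3 the change was -1.70 (adjusted p 0.0173). It missed the threshold when all 43653 probes were tested (adjusted p 0.115) and without moderation of the variances in the paired test (0.104).

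**Figure D2:**
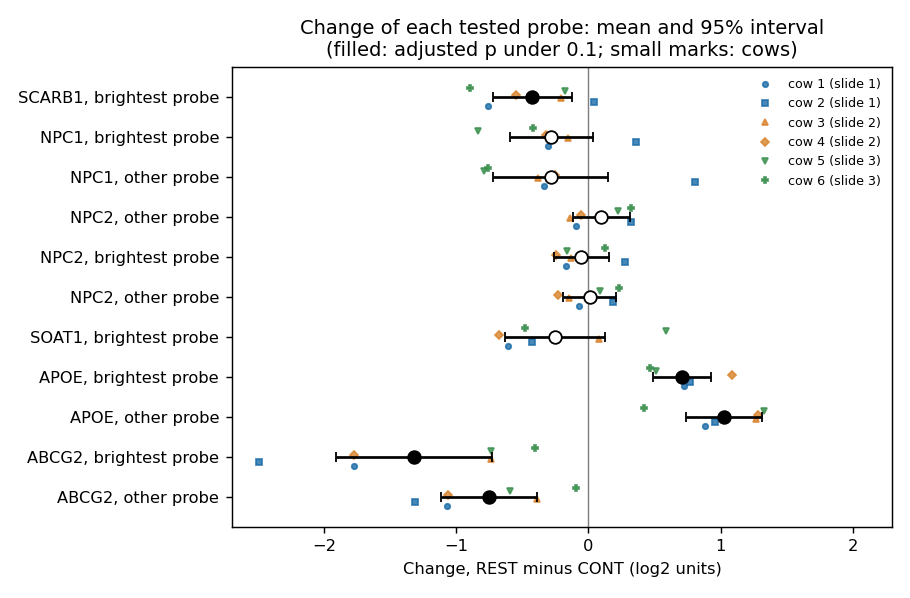
Change from CONT to REST (log2 units, x axis) of the 11 tested probes, with the mean and its 95% interval from the paired limma fit (large circles, filled where the adjusted p was under 0.1) and the 6 cows as small marks coloured by slide. Both probes of APOE lie above 0 and both probes of ABCG2 below 0, while the marks of cow 2 lie above 0 for SCARB1, NPC1 and NPC2.

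The cows were not ordered alike from gene to gene. Cow 2 had the largest fall of ABCG2 (-2.49) and was the cow in which SCARB1 (0.04), NPC1 (0.36) and NPC2 (0.27) were all higher in REST. Cow 6 had the smallest fall of ABCG2 (-0.40), the smallest rise of APOE (0.47) and the largest fall of SCARB1 (-0.89). Cow 5 combined the largest fall of NPC1 (-0.84) with the largest rise of SOAT1 (0.59).

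For the 3 called genes, the genes with the most similar profile over the 12 arrays were listed by Pearson's r between normalized signals. These values describe 12 arrays that share 6 cows and 3 slides, and carry no test. Period means were not removed, so a shared change from CONT to REST raises r. The directions of the genes listed are thus partly set by how they were picked. APOE was most like VWF, von Willebrand factor of endothelial cells (r = 0.970), DOCK10, an exchange factor for small GTPases (0.932), and PLAT, tissue plasminogen activator (0.931), which rose by 0.54, 0.45 and 0.52. ABCG2 was most like BDH1, a ketone body dehydrogenase (0.986), PLA2G3, a secreted phospholipase (0.963), and IDH1, the cytosolic isocitrate dehydrogenase (0.962), which fell by 1.79, 2.52 and 0.87. SCARB1 was most like SEC22B, a vesicle fusion protein (0.910), PDZD11 (0.876) and GET1 (0.869), none of which was called (adjusted p-values from 0.157 to 0.235).

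A wider list of 61 genes of lipoprotein uptake, lysosomal release, sterol transport, esterification, efflux, oxysterols and regulation was chosen by role. A probe was matched for 49 of them and 36 were tested. In the paired fit 7 were called (19.4%, against 16.2% of all tested genes), 6 higher (6.95% of all tested genes were) and 1 lower in REST (9.27% of all), and the median change of the 36 genes was 0.03. The 6 include OSBPL2, which was tested only through REST, the group in which it was higher. Among probes above background on all arrays, OSBPL2 was not tested and 7 genes were called, with NCEH1 in its place. This list too was chosen with earlier results of these data known, so its counts are a description. Without the pairing 4 were called, all higher (APOA1, CLU, NR1H3 and SCP2), against 4.41% of all tested genes. The count also fell to 3 without cow 2 and to 4 without cow 4. APOA1, CLU and TMEM97 were called with each of the 6 cows left out in turn.

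The called gene that fell belonged to lysosomal release. TMEM97 (NM_001034403), a membrane protein known to bind NPC1, changed by -0.57 (SE 0.10, adjusted p 0.0207) in 6 of 6 cows, and its other 2 probes, by -0.64 and -0.40, were called as well, whereas the unpaired adjusted p was 0.335. Of the genes of uptake, VLDLR, CD36, LSR and MYLIP changed by -0.05, -0.15, -0.23 and 0.32 and were not called, nor was LIPA, the lysosomal acid lipase. The brightest probe of LIPA changed by -0.003 and its dimmer tested probes by 0.48 and 0.55 (adjusted p-values of 0.990, 0.190 and 0.135). STARD3, a sterol-binding protein of late endosomes, was not called by its brightest probe (-0.17, adjusted p 0.259) but was by a dimmer one (-0.35, adjusted p 0.0398).

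The apolipoproteins APOA1 and CLU rose beside APOE. APOA1 (NM_174242), the main protein of high-density lipoproteins, had a mean of 0.003 ± 0.44 in CONT and 1.001 ± 0.43 in REST, and rose by 0.998 (SE 0.15, adjusted p 0.0109) in 6 of 6 cows. CLU (NM_173902), clusterin or apolipoprotein J, went from 4.79 ± 0.48 to 5.78 ± 0.56, a change of 0.99 (SE 0.15, adjusted p 0.0103) in 6 of 6 cows, and 4 of 4 tested probes of CLU were called. Of the other efflux and lipoprotein genes tested, APOD, ABCA3 and PLTP changed by 0.30, -0.17 and -0.09 and were not called.

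NR1H3 (NM_001014861), the nuclear receptor LXR alpha that responds to oxysterols, went from 0.39 ± 0.19 to 0.79 ± 0.08, a change of 0.40 (SE 0.10, adjusted p 0.0482), with 0.00 in cow 5 and 0.34 to 0.70 in the other cows. It was not called without cow 1, 2 or 4 (changes of 0.34, 0.41 and 0.36, adjusted p from 0.119 to 0.136), and its second tested probe changed by 0.31 (adjusted p 0.225). CYP27A1, the sterol hydroxylase that makes an oxysterol from cholesterol, rose by 0.35 (SE 0.08, adjusted p 0.0349) in 6 of 6 cows, with 4 of 4 probes called, and was not called without cow 2 (0.31, adjusted p 0.110) or without the pairing (0.191). SCP2, sterol carrier protein, rose by 0.35 (SE 0.09, adjusted p 0.0425), with 1.71 to 2.06 in CONT and 2.11 to 2.399 in REST, but its second tested probe changed by 0.01 (adjusted p 0.964), and the call was lost without cow 2 (0.34) or cow 4 (0.36) and without slide 3 (0.28). OSBPL2, of the oxysterol-binding protein family, had a change of 0.30 at the edge of the threshold (adjusted p 0.0983), with 1 of 6 cows lower, and was called with cow 3 left out but with no other cow left out. With normexp background correction its change was 0.055 (adjusted p 0.602). Its single probe was not well above background on the CONT array of cow 6, so OSBPL2 was tested only through REST, the group in which it was higher, and its call is given as a description. SREBF2 and SCAP, which drive sterol-responsive transcription, and NR1H2, the other LXR, changed by -0.24, -0.11 and 0.08 and were not called. The genes of esterification and ester hydrolysis gave 0 calls among 3 tested (limma; NCEH1 had a change of 0.30 and an adjusted p of 0.102).

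**Figure D3:**
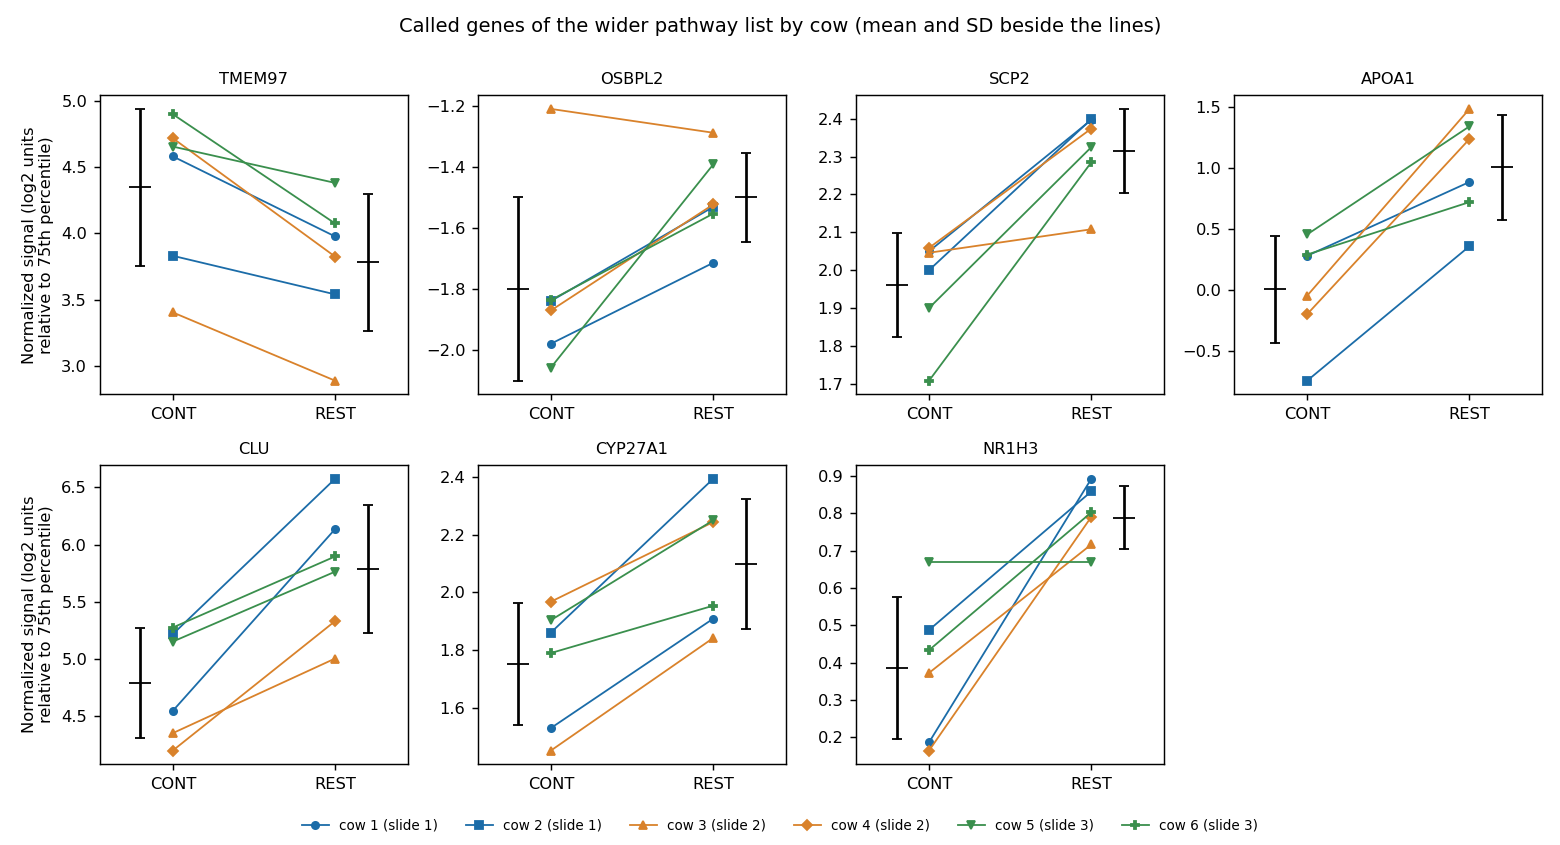
Normalized signal (log2 units relative to the 75th percentile) in CONT and REST of the 7 called genes of the wider list, 1 line per cow coloured by slide, with the mean and SD of each group (n = 6). TMEM97 falls and APOA1, CLU and CYP27A1 rise in 6 of 6 cows, and the line of NR1H3 is flat for cow 5.

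Marker genes of the cells in a biopsy were set beside these changes. Their counts of calls are to be read against the 16.2% of all tested genes that were called, 6.95% higher and 9.27% lower. Of the luminal epithelial markers, 2 of 6 tested were called, both higher (KRT8 by 0.71 and KRT18 by 0.52), with a median of 0.23. KRT19 and EPCAM changed by 0.12 and 0.33 and ELF5 and CLDN4 by -0.05 and -0.17, and were not called. The summed level, on the linear scale relative to the 75th percentile, was 231 to 321 in CONT and 253 to 333 in REST. KRT8 and KRT18 were not called without the pairing (adjusted p 0.133 and 0.508). With 1 cow left out in turn, KRT8 was called 6 times and KRT18 once, without cow 6. The mean of the tested probes of KRT8 changed by 0.415 (limma adjusted p 0.0239). Of 3 tested milk protein genes, CSN1S1 (-0.26) and CSN3 (-0.28) were called lower, with a summed level of 2610 to 3420 in CONT and 2070 to 2680 in REST. With quantile normalization their changes shrank to -0.09 and -0.07 (adjusted p 0.439 and 0.562), and neither was called with normexp (0.148 and 0.248) or without the pairing (0.185 and 0.226). With 1 cow left out in turn, CSN1S1 and CSN3 were called only without cow 5. The macrophage and leukocyte markers gave 0 calls among 7 tested, with a median of 0.17, changes from -0.17 to 0.46 (TYROBP, adjusted p 0.115) and a summed level of 8.97 to 12.7 in CONT and 9.39 to 13.8 in REST. Of the endothelial markers, 1 of 5 was called, VWF, with a rise of 0.54 (adjusted p 0.00726), while PECAM1, CDH5, KDR and TEK changed by 0.32, 0.03, -0.15 and 0.13, and the summed level was 8.43 to 11.4 in CONT and 10.2 to 12.5 in REST. The fibroblast markers gave 0 calls among 6, with a median of -0.36 and a summed level of 34.2 to 63.9 in CONT and 26.4 to 73.5 in REST. Of the myoepithelial markers, 2 of 6 were called lower (CNN1 by -0.53 and ACTA2 by -0.38), with a median of -0.065 over the list. KRT5, OXTR and MYLK changed by 0.25, 0.17 and 0.04 and KRT14 by -0.17, and were not called. The summed level was 89.7 to 169 in CONT and 74.0 to 153 in REST. CNN1 and ACTA2 were not called without the pairing (adjusted p 0.294 and 0.450). CNN1 was not called without cow 2 (0.101), ACTA2 was called without cow 4 but with no other cow left out and not with quantile normalization (0.137), and within slide 2 the changes were -0.18 and -0.03. Of 2 tested skeletal muscle markers, CKM was called lower (-0.36) and ACTA1 changed by 0.02. The summed level was 2.05 to 3.73 in CONT and 1.72 to 2.94 in REST. CKM was called with cow 5 or cow 6 left out but with no other cow left out, and not without the pairing (adjusted p 0.474). The adipocyte markers had 0 tested genes, as none of the 3 with a probe was well above background on all arrays of a group. The part of these shifts in the changes of APOE, ABCG2 and SCARB1 was not tested.

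**Figure D4:**
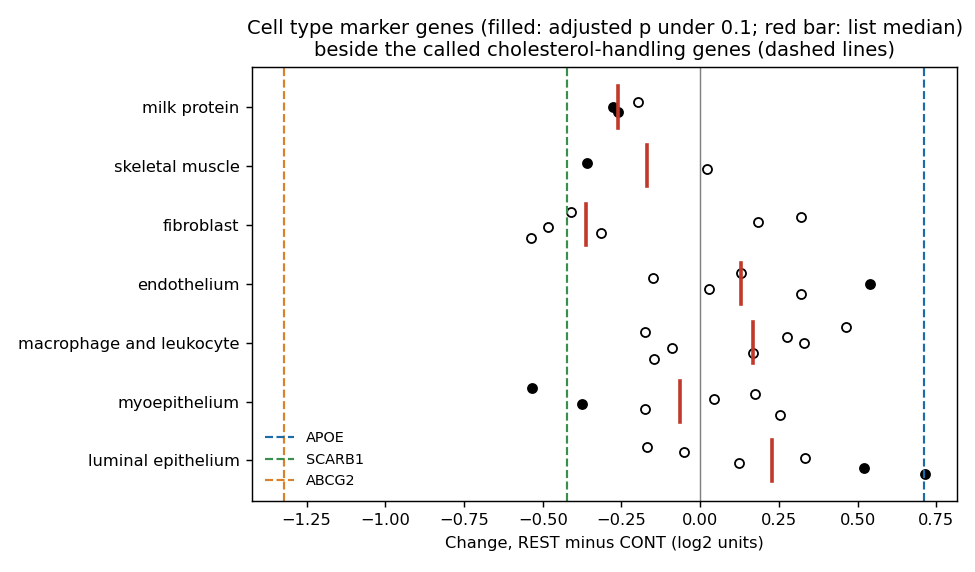
Change from CONT to REST (log2 units, x axis) of the tested marker genes of each cell type (circles, filled where the adjusted p was under 0.1, with the list median as a red bar) beside the changes of APOE (0.71), SCARB1 (-0.42) and ABCG2 (-1.32) as dashed lines. The marker changes run from -0.54 (COL1A1, not called) to 0.71 (KRT8), and the adipocyte list had 0 tested genes. The part of cell types in the changes of APOE, SCARB1 and ABCG2 was not tested.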

How the data were processed

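Mammary RNA of 6 cows in the CONT and REST periods was hybridized to 12 arrays on 3 slides. Per the file headers, the authors extracted spot intensities with Agilent Feature Extraction 11.0.1.1. The deposited intensity values are a background-subtracted and detrended processed signal, without scaling between arrays, and the deposited table of the series held identical intensities in all 45220 cells of each array. Flags of the scanner software for background and outliers were read from the same files. Here log2 intensities were shifted by the 75th percentile over spots that are not controls, 1 to 13 marked spots per array were left out (0 values of the member probes), and repeat spots were averaged. Symbols came from RefSeq transcripts (27131 of 43653 probes). The grid annotation and that table use different assemblies, so no coordinates are given.

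REST was compared with CONT in limma 3.58.1 (R 4.3.3; Python 3.11.15 with pandas 2.3.3 read the files and matplotlib 3.10.9 drew the plots) with the cow as a block, over 19406 tested probes with Benjamini-Hochberg adjustment, two-sided. The cow comes from the labels, and once group means were removed, both arrays of the same cow correlated across probes (r from 0.356 to 0.574, against at most 0.134 for different cows). The methods of the study describe the percentile shift and t-tests with false discovery rate correction, without stating a pairing; the limma fit was also run unpaired, and both forms without moderation of the variances. The fit was tested on simulated data. The members and lists were chosen with earlier results of these data known. Named genes were the members, the called genes of the wider list (at most 12; 1 gene that the rule names is not reported here), the 3 genes most like each called member (at most 3 members), and the marker lists; the uncalled genes named were chosen after their values were seen. The number of arrays limits the precision.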

Additional observations from a re-analysis of the deposited data

How the results depend on the processing

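Of the 6 tested genes, APOE kept its call under all 21 alternatives with a test and ABCG2 under 19, while SCARB1 was called under 11 (adjusted p-values from 0.0578 to 0.419). These tallies include the table of the series and marked spots kept, which left the values of the 6 genes unchanged. NPC1 and NPC2 were called under none, with adjusted p-values of at least 0.114 and 0.510, and SOAT1 under 1. The count of called genes among the 9 was 3 with quantile normalization, a median shift, normexp, the table of the series, marked spots kept, trended and robust moderation, any tested probe, probes above background on all arrays, and the cow as a random replicate block; it was 2 with no replicate block or with the slide as a block, and 1 when all probes were tested (APOE) or without moderation in the paired test (APOE). With 1 cow left out it was 2 to 4, and with slide 3 left out, an alternative chosen after seeing the data, it was 2.

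The 7 calls of the wider list became 9 with normexp (APOD, MYLIP and SCARB2 in addition, OSBPL2 lost), 8 with quantile normalization or a median shift (NCEH1 in addition), 8 with the cow as a random replicate block (STARD5 in addition, which like OSBPL2 passed the filter only through REST, where it was higher), and 7 with probes above background on all arrays (NCEH1 in place of OSBPL2, which was not tested there). They became 2 when all probes were tested, 4 with no replicate block, 4 with the slide as a block, and 5 and 3 in tests without moderation of the variances, paired and unpaired. With 1 cow left out they were 3 to 8, with slide 3 left out 6, and with any tested probe of a gene 9 (STARD3 and CAV1 in addition). The sign of NPC2 turned with normexp (0.044, adjusted p 0.769) and with the mean of its tested probes (0.017, adjusted p 0.922). The cause of these differences was not tested. Signal over background limits ABCA1, which was not tested, and dim probes on slide 3, among them ABCG1 in cow 6. No array of a group of 6 lay past Dixon's critical value, tested in 16 groups of member values.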
